A study of Homo sapiens with 12 samples.

Results

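Metallothioneins are small proteins, rich in cysteine, that bind zinc, copper and cadmium and hold the free concentration of these metals low in the cell. The genes described here are MT2A, MT1E, MT1F, MT1G, MT1M and MT1X. They were chosen by their gene symbols, with earlier results of these data known, and are 6 of the 58735 genes in the table. RNA was sequenced from a pair of human breast cell lines, in 4 groups of 3 libraries, to compare their responses to the garlic organosulfur compound diallyl trisulfide (DATS). The groups were SK-BR-3 given 20 µM DATS, SK-BR-3 given the solvent dimethyl sulfoxide (DMSO, 0.07%), MCF-10A given 20 µM DATS and MCF-10A given 0.07% DMSO, all for 16 h. SK-BR-3 comes from a breast cancer and carries an amplification of ERBB2, the HER2 receptor gene, and MCF-10A is an immortalised breast epithelial line that does not form tumours. Each group was made in 3 independent preparations, per the labels. The labels do not say whether DATS cultures also held DMSO. Each line stands for 1 tumour or 1 donor only.

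Metallothionein genes are switched on through metal response elements, short promoter sequences bound by the zinc-sensing transcription factor MTF1. Free zinc, cadmium and oxidants that release zinc from proteins all act through this factor. Glucocorticoids also raise MT2A, and many tissues keep MT2A as the main form while the MT1 genes vary with cell type.

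In SK-BR-3, DATS raised MT1G 3.02-fold, MT1F 2.32-fold and MT2A 1.47-fold in mean FPKM, and MT1X did not pass the test. FPKM is the fragment count of a gene divided by its exon length and by an effective library size, which differed from the reads in genes. In MCF-10A no metallothionein passed the test. The lines also used different members: MT1E was the main MT1 gene of MCF-10A and was almost undetected in SK-BR-3, while MT1G had the highest mean FPKM of the MT1 genes in SK-BR-3 with either treatment (MT1X was higher in 1 DMSO library) and had no read in MCF-10A. The lead of MT1G with DMSO depends on the exon lengths used, 750 bases for MT1G and 1773 for MT1X. Summed over the SK-BR-3 DMSO libraries, MT1G had 364 reads and MT1X 593. MT1M had 1 read in all 12 libraries.

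All 6 genes lie in 1 cluster on chromosome 16 of GRCh38. MT2A (ENSG00000125148) spans chr16:56608199-56609497 and MT1E (ENSG00000169715) spans chr16:56625475-56627112, both on the plus strand. MT1M (ENSG00000205364) spans chr16:56632233-56633986 and MT1F (ENSG00000198417) spans chr16:56657694-56660698, also on the plus strand. MT1G (ENSG00000125144) is on the minus strand at chr16:56666731-56668065, and MT1X (ENSG00000187193) is on the plus strand at chr16:56682424-56684196. Each coding sequence has 186 bases with its stop codon, in 3 coding exons of 28, 66 and 89 bases without the stop. Of the 61 codons 20 encode cysteine (32.8%), the residue that holds the metal. The coding sequences of the 5 genes with more than 1 read are shown because reads must be told apart between them. They are taken from GENCODE 29 transcripts on GRCh38, joined over exons that span chr16:56608656-56609351 for MT2A, chr16:56625852-56626968 for MT1E, chr16:56658059-56659161 for MT1F, chr16:56666882-56667993 for MT1G and chr16:56682541-56684046 for MT1X. Capitals mark cysteine codons.
MT2A: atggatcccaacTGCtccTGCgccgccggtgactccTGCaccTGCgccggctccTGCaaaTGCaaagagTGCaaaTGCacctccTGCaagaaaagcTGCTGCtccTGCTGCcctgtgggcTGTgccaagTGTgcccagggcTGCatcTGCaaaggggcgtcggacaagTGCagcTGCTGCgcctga
MT1E: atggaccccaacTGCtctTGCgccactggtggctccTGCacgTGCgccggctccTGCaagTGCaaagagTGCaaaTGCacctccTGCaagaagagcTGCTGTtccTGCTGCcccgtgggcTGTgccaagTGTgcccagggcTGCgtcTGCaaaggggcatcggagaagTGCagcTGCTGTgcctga
MT1F: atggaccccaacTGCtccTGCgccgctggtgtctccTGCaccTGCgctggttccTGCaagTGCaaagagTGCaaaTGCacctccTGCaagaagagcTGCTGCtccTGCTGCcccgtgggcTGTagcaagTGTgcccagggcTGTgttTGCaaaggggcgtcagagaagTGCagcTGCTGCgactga
MT1G: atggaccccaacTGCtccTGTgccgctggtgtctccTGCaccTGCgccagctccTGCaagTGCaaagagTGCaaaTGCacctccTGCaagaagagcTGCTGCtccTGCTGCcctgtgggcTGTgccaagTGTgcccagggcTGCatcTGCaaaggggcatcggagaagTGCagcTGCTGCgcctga
MT1X: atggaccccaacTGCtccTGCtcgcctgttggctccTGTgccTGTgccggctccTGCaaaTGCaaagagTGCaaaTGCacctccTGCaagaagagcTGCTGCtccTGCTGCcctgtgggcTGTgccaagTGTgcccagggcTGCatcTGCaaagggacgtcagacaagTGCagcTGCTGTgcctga

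All 20 cysteine codons stand at the same places in all 6 genes. Identity over the 186 bases ran from 88.7% (MT1F with MT1X) to 95.2% (MT1G with MT2A) over the 15 pairs. The untranslated ends differ more, so whole transcripts were compared in windows. Of windows of 50 bases, 16.5% of those of MT1G, 7.1% of those of MT1E, 3.6% of those of MT1X, 3.0% of those of MT2A and 1.2% of those of MT1F occurred in another family transcript. With windows of 100 bases this share was 0 for each member. The read length and the treatment of reads with several matches were not given in the labels or headers, so values of MT1G in particular could include reads split with MT1H or MT1X.

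RefSeq promoters (GRCh38.p14, 250 bases before to 50 after the gene start) were available for MT2A and MT1X, 2 of the 6 members, and are shown because 1 of these genes, MT2A, was called with DATS in SK-BR-3 and the other was not. The metal response element cores searched were TGCACNC and TGCGCNC, on both strands, and capitals mark every match in the 250 bases before the start. The window is chr16:56608334-56608583 for MT2A and chr16:56682220-56682469 for MT1X, both on the plus strand. The GENCODE 29 model of MT2A begins upstream of the MT2A window.
MT2A promoter: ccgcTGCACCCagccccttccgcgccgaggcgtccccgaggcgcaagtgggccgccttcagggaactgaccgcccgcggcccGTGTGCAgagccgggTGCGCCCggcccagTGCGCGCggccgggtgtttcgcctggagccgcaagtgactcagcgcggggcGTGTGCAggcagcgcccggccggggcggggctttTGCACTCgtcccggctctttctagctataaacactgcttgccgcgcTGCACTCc
MT1X promoter: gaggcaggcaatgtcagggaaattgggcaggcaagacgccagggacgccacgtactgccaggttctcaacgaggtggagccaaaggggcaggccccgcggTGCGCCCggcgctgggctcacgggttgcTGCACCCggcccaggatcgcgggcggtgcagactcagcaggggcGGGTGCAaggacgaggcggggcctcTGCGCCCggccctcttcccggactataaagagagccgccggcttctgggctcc

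Over the 300 bases MT2A held 8 matches to these cores, of which 7 lie in the 250 bases shown, and MT1X held 4, all in the bases shown. Of all 35116 RefSeq promoters, 29.6% held at least 1 match, 0.601% at least 4 and 0.0199% at least 8. The A form alone was found in 12.1% and the G form in 20.0% of promoters. The antioxidant response element core TGACNNNGC, the core that NRF2 binds, had 1 match in each of these 2 promoters and was found in 13.3% of all promoters. A match of letters is not evidence of binding.

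MT1G had the largest fold change of the members in SK-BR-3. It had 48.4, 32.1 and 12.2 FPKM in the 3 DATS libraries of SK-BR-3, against 11.3, 12.04 and 7.32 FPKM in the 3 DMSO libraries. The lowest DATS library (12.17 FPKM) lay just above the highest DMSO library (12.04 FPKM), so the groups were apart by less than the spread within either. The log2 fold change of FPKM + 1 was 1.34 ± 0.36 (SE, limma adjusted p = 0.026). In MCF-10A no MT1G read was found in any library with DATS or with DMSO, which allows up to 0.0793 FPKM with DATS and 0.0724 FPKM with DMSO (3 reads over the group; these limits cover counting error only).

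MT1F had 8.79, 9.17 and 4.83 FPKM in SK-BR-3 with DATS, against 2.89, 3.42 and 3.49 FPKM with DMSO. The DATS values were all above the highest DMSO value, and the log2 fold change was 0.97 ± 0.20 (limma adjusted p = 0.00879). In MCF-10A the gene had 3.39, 3.75 and 2.57 FPKM with DATS and 1.56, 1.90 and 2.52 FPKM with DMSO. The lowest DATS value and the highest DMSO value, both of replicate 3, nearly met, and the log2 difference of 0.50 ± 0.20 did not pass the test (limma adjusted p = 0.154).

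MT2A was the most abundant metallothionein in every library. In SK-BR-3 it had 430.5, 535.5 and 354.2 FPKM with DATS, against 245.8, 351.2 and 302.4 FPKM with DMSO. The groups did not overlap, though the gap between 354.2 and 351.2 FPKM was small, and the log2 fold change was 0.55 ± 0.17 (limma adjusted p = 0.0417). In MCF-10A it had 1280, 1379 and 1211 FPKM with DATS and 912.6, 1098 and 1162 FPKM with DMSO. DATS libraries again lay above DMSO libraries, by a log2 difference of 0.29 ± 0.17 that did not pass the test (limma adjusted p = 0.319).

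MT1X had 5.07, 9.39 and 6.31 FPKM in SK-BR-3 with DATS and 6.72, 6.88 and 7.45 FPKM with DMSO. Values overlapped and the DATS libraries spread more widely, with a log2 difference of -0.05 ± 0.18 (95% interval -0.44 to 0.33, limma adjusted p = 0.886). In MCF-10A it had 1.59, 1.70 and 1.13 FPKM with DATS and 1.66, 2.20 and 1.42 FPKM with DMSO, and the log2 difference was -0.16 ± 0.18 (95% interval -0.54 to 0.23, limma adjusted p = 0.647). The interval in SK-BR-3 excludes a response as large as the estimate for MT2A in the same cells, although that difference between genes was not itself tested.

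MT1E had 185.9, 185.6 and 114.2 FPKM in MCF-10A with DATS and 125.0, 131.9 and 120.5 FPKM with DMSO. The third DATS library lay below all DMSO libraries and the other two above them. The log2 difference was 0.33 ± 0.16 (limma adjusted p = 0.255), and without that DATS library it was 0.56 with an adjusted p of 0.0205. In SK-BR-3 MT1E had 5, 1 and 0 reads with DATS and 0 reads in every DMSO library.

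**Figure D1:**
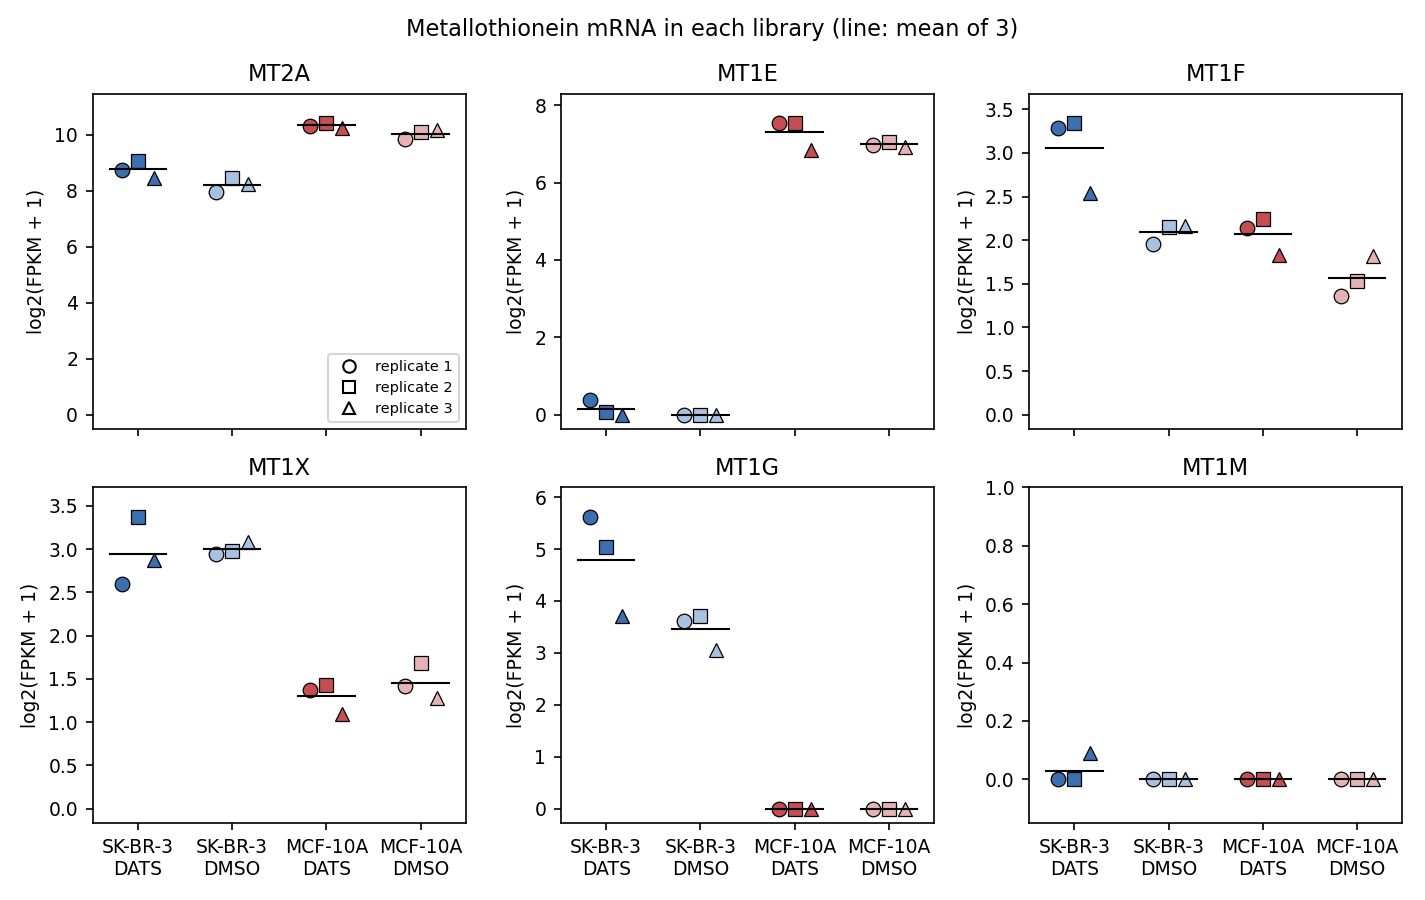
Level of each of the 6 metallothioneins, as log2(FPKM + 1) on the vertical axis, in the 12 libraries, with groups along the horizontal axis, a point for each library (circle, square and triangle for replicates 1, 2 and 3) and a line at the mean of 3. MT1E is high in MCF-10A and near 0 in SK-BR-3, MT1G is the reverse, and triangles are the lowest DATS points for MT2A, MT1E, MT1F and MT1G.

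In SK-BR-3, 3 of the 5 members tested (MT1M was too low) were called higher at an adjusted p under 0.05 by limma, and 0 lower. Over all genes tested 11.3% were called higher. edgeR on reads recovered from the FPKM values called the same 3 genes. DESeq2 also called 3, with MT1E (6 reads with DATS and 0 with DMSO) in place of MT1G (DESeq2 adjusted p = 0.0527), and limma on the SK-BR-3 libraries alone called 0, with the same 3 at an unadjusted p under 0.05. Every DATS library lay above every DMSO library for 3 members, against 21.1% of all genes tested.

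In MCF-10A, limma called 0 of 5 members, with 1 (MT1F) at an unadjusted p under 0.05. edgeR and DESeq2 also called 0. Over all genes tested limma called 6.28% in either direction there. Every DATS library lay above every DMSO library for MT2A and MT1F, against 17.3% of all genes. MT1G and MT1E passed the filter on low values through 1 line only, so their tests in the other line carry little information.

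Passing the test in SK-BR-3 and not in MCF-10A does not show that the lines responded differently. The difference of the responses, SK-BR-3 minus MCF-10A, was 1.34 ± 0.51 for MT1G, 0.47 ± 0.28 for MT1F, 0.25 ± 0.23 for MT2A and 0.10 ± 0.25 for MT1X on the log2 scale. None was called by limma (adjusted p = 0.163 for MT1G, 0.373 for MT1F, 0.575 for MT2A and 0.854 for MT1X), against 4.29% of all genes tested. At an unadjusted p under 0.05 limma had 1 member, MT1G, DESeq2 had 1 and edgeR 0. At an adjusted p under 0.05 edgeR and DESeq2 called 0. With a replicate block in the fit MT1G was called (adjusted p = 0.0367). MT1G has no read in MCF-10A, so its difference equals its response in SK-BR-3 and cannot speak of a response in a line where the gene was not detected.

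**Figure D2:**
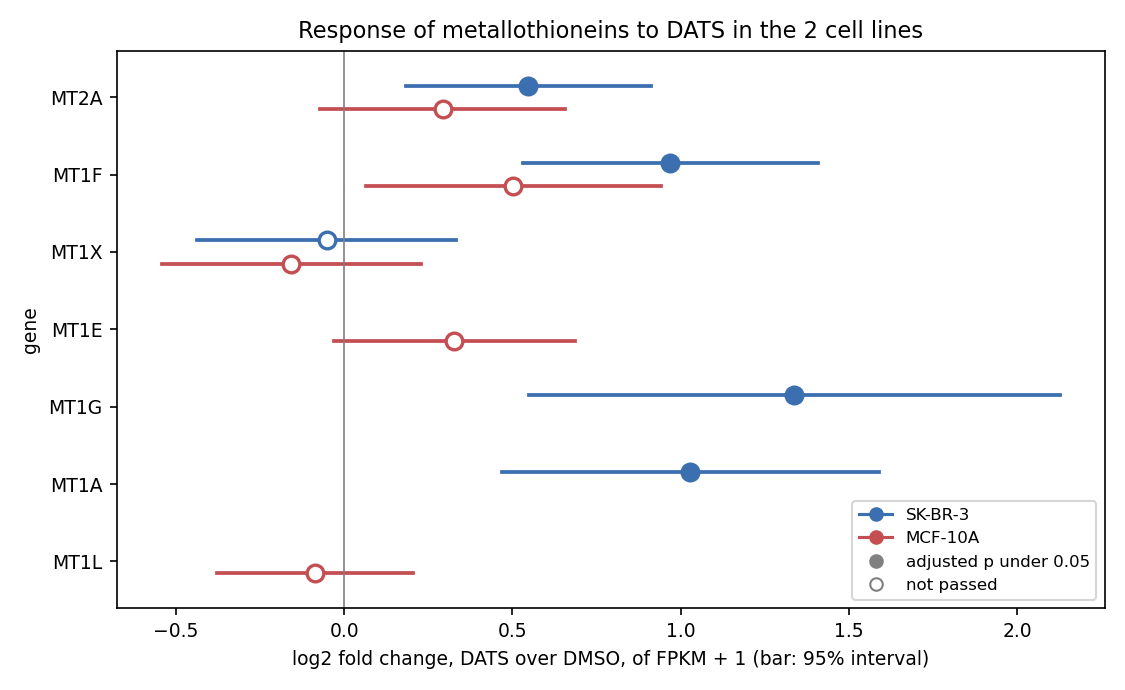
Log2 fold change of DATS over DMSO (horizontal axis, FPKM + 1) with its 95% interval for 7 metallothionein genes in SK-BR-3 and MCF-10A, filled where the adjusted p was under 0.05. MT1G, MT1A, MT1F and MT2A are filled in SK-BR-3 only, and genes with at most 6 reads in a line are not drawn there.

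The ratio of DATS to DMSO between libraries with the same replicate number was smallest in replicate 3 for MT2A, MT1F and MT1G in SK-BR-3 and for MT2A, MT1E and MT1F in MCF-10A. What libraries with 1 number share is not stated in the labels. MT1G was 4.29, 2.66 and 1.66 times as high with DATS as with DMSO in replicates 1, 2 and 3 of SK-BR-3. MT1F was 3.04, 2.68 and 1.38 times as high in SK-BR-3, and 2.17, 1.97 and 1.02 times as high in MCF-10A. MT2A was 1.75, 1.52 and 1.17 times as high in SK-BR-3, and 1.40, 1.26 and 1.04 times as high in MCF-10A. In replicates 1, 2 and 3 ribosomal RNA made up 0.427%, 0.557% and 0.454% of reads with DATS and 0.344%, 0.346% and 0.410% with DMSO in SK-BR-3. In MCF-10A it made up 0.365%, 0.386% and 0.261% with DATS and 0.249%, 0.243% and 0.257% with DMSO. The DATS increase in this share was also smallest in replicate 3 of each line, and its part in the metallothionein response was not tested. With replicate 3 of every group left out, a choice made after the values were seen, MT1E and MT1F were called in MCF-10A and MT1F and MT1G in SK-BR-3.

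The calls in SK-BR-3 differed in how far they rested on single libraries. MT1F was called whichever library was left out (adjusted p 0.00238 to 0.0316). MT1G was lost without SK-BR-3 DATS replicate 1 or 2 or SK-BR-3 DMSO replicate 3 (adjusted p 0.0686 to 0.0963). MT2A was lost for 8 of the 12 libraries (adjusted p 0.052 to 0.124): SK-BR-3 DATS 1 and 2, SK-BR-3 DMSO 1 and 3, all of MCF-10A DATS, and MCF-10A DMSO 2. Its log2 fold change stayed between 0.40 and 0.69 over these fits. The authors' deposited table gives an adjusted p of 0.000261 for MT1F, 0.0234 for MT2A and 0.0518 for MT1G in SK-BR-3. For MCF-10A the authors give MT1F a log2 fold change of 0.663 (unadjusted p = 0.0152, adjusted p = 0.105). They give MT2A 0.251 there (unadjusted p = 0.0272, adjusted p = 0.152).

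For MT2A, MT1E, MT1G and MT1X the estimated difference between the lines was larger than either response to DATS. With DMSO, MT1E averaged 0 FPKM in SK-BR-3 and 125.8 ± 5.76 FPKM in MCF-10A (SD, n = 3 each), and was at least 2100-fold lower in SK-BR-3 when 3 reads over the group are taken as its limit. MT1G averaged 10.2 ± 2.54 FPKM in SK-BR-3 and 0 FPKM in MCF-10A, at least 141-fold higher in SK-BR-3. MT1E and MT1G had to differ, since each passed the filter through 1 line only.

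MT2A averaged 299.8 ± 52.7 FPKM in SK-BR-3 with DMSO and 1057 ± 129 FPKM in MCF-10A with DMSO (log2 -1.82 ± 0.17, limma adjusted p = 1.1e-06), a ratio of 0.284. MT1X averaged 7.02 ± 0.380 FPKM in SK-BR-3 and 1.76 ± 0.398 FPKM in MCF-10A (1.55 ± 0.18, limma adjusted p = 7.49e-06). MT1F averaged 3.27 ± 0.330 FPKM in SK-BR-3 and 1.99 ± 0.485 FPKM in MCF-10A (0.52 ± 0.20, limma adjusted p = 0.0338). The MT1F call was lost without MCF-10A DMSO 1 or 2 or without SK-BR-3 DMSO 2 or 3 (adjusted p 0.0781 to 0.12). So MT2A and MT1E were lower in SK-BR-3, and MT1G, MT1X and MT1F higher. That is 5 of 5 tested members called, where 72.1% of all genes tested were called. These 5 include MT1E and MT1G, which had to differ, so the count cannot be read against that share.

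The order of the members by mean FPKM differed with the line. In SK-BR-3 with DMSO it was MT2A, MT1G, MT1X and MT1F, where MT1G and MT1X overlapped (7.32 to 12.04 and 6.72 to 7.45 FPKM). By reads, not divided by exon length, MT1X (593) came before MT1G (364) in that group. With DATS the FPKM order in SK-BR-3 was MT2A, MT1G, MT1F and MT1X, where MT1F and MT1X overlapped. In MCF-10A it was MT2A, MT1E, MT1F and MT1X with either treatment, and MT1F and MT1X overlapped with DMSO but not with DATS. By mean FPKM, MT2A ranked 75 among all genes in SK-BR-3 with DATS and 115 with DMSO, and 23 in MCF-10A with DATS and 25 with DMSO. MT1E ranked 203 in MCF-10A with DATS and 248 with DMSO.

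Of the 15 other metallothionein genes and pseudogenes in the table, 6 had at least 10 reads over the 12 libraries and 5 had none. MT1A, a protein-coding MT1 gene, had 2.38, 5.16 and 4.73 FPKM in SK-BR-3 with DATS and 1.18, 0.771 and 2.65 FPKM with DMSO, and no read in MCF-10A. It was called higher with DATS (log2 fold change 1.03 ± 0.26, limma adjusted p = 0.0186), although the groups overlap and neither edgeR (adjusted p = 0.109) nor DESeq2 (adjusted p = 0.15) called it on its 108 reads. MT1H had 13, 27 and 7 reads in SK-BR-3 with DATS, against 3, 2 and 1 reads with DMSO, and was too low for the test. It also had no read in MCF-10A. The authors' deposited table gives MT1H a log2 fold change of 2.90 with an unadjusted p of 0.0023 and an adjusted p of 1.

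MT1L, a transcribed pseudogene beside MT1E, was detected in the same line as MT1E. It had 25.2, 21.6 and 15.5 FPKM in MCF-10A with DATS and 20.6, 22.7 and 21.9 FPKM with DMSO, with no read in SK-BR-3. The log2 difference in MCF-10A was -0.09 ± 0.13 (limma adjusted p = 0.753) and turned positive (0.10) without MCF-10A DATS replicate 3. MT1P1, MT1DP and MT1XP1 had 16, 12 and 10 reads over all libraries.

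Without MT2A, the summed FPKM of the family was 51.9 ± 19.7 in SK-BR-3 with DATS and 23.9 ± 0.990 with DMSO, and 188.4 ± 46.6 in MCF-10A with DATS and 152.3 ± 7.25 with DMSO. MT1G made up 72.2%, 54.5% and 41.0% of this sum in SK-BR-3 with DATS, against 45.4%, 50.5% and 32.0% with DMSO. MT1X made up 7.57%, 16.0% and 21.3% with DATS, against 27.0%, 28.9% and 32.5% with DMSO, so its share was lower with DATS in every library while its level was not called. In MCF-10A, MT1E made up 81.8% to 86.9% and MT1L 10.1% to 14.9% over the 6 libraries. All these are shares of FPKM, which weigh short gene models more than shares of reads would. The exon length was 411 bases for MT1L and 1052 for MT1E, with 494 and 7324 reads in MCF-10A with DMSO. It was 750 bases for MT1G and 1773 for MT1X, with 364 and 593 reads in SK-BR-3 with DMSO. MT2A alone made up 85.5% to 93.6% of the family's FPKM over the 12 libraries. These sums were not tested, and an exact permutation test of 3 against 3 cannot go below a p of 0.1.

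**Figure D3:**
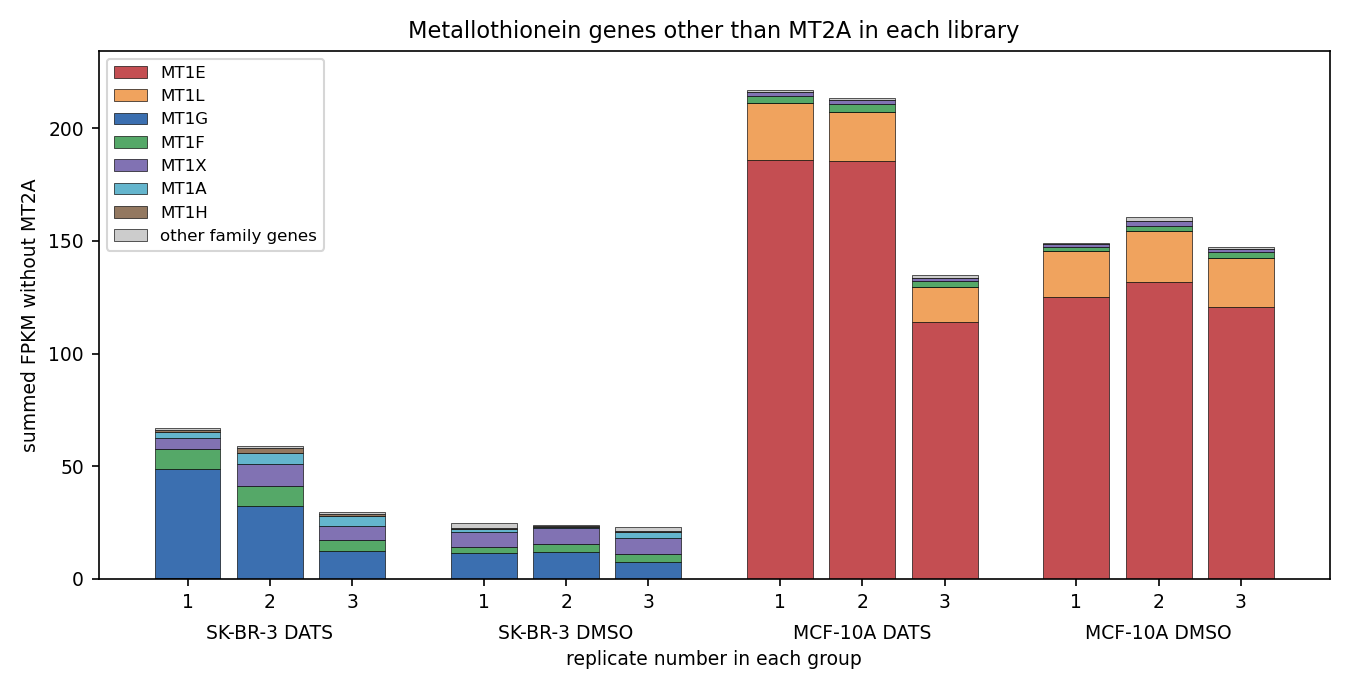
Summed FPKM of metallothionein genes other than MT2A (vertical axis, linear) in each of the 12 libraries, stacked by gene, with replicate numbers along the horizontal axis. The MCF-10A bars are mostly MT1E with MT1L, the SK-BR-3 bars are mostly MT1G, MT1X and MT1F, and the DATS bars of SK-BR-3 reach 67.0, 58.9 and 29.6 against 22.9 to 24.9 with DMSO.

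Other than metallothioneins, 11 protein-coding genes within 500 kb of the members were examined. Of the 7 tested, 2 were higher and 3 lower in SK-BR-3 than in MCF-10A with DMSO, 5 of 7 called against 72.1% of all genes tested. The widest difference was that of HERPUD1, a protein of the endoplasmic reticulum stress response, with 38.1 ± 8.02 FPKM in SK-BR-3 and 6.66 ± 0.710 FPKM in MCF-10A. In SK-BR-3, 2 of the 7 rose with DATS, against 11.3% of all genes tested: CPNE2, a copine (log2 0.79, limma adjusted p = 0.00141), and NUP93, a nuclear pore protein (0.37, adjusted p = 0.0145). In MCF-10A limma called 0 of the 7 with DATS, with 3 at an unadjusted p under 0.05, edgeR called 0 and DESeq2 called 1.

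**Figure D4:**
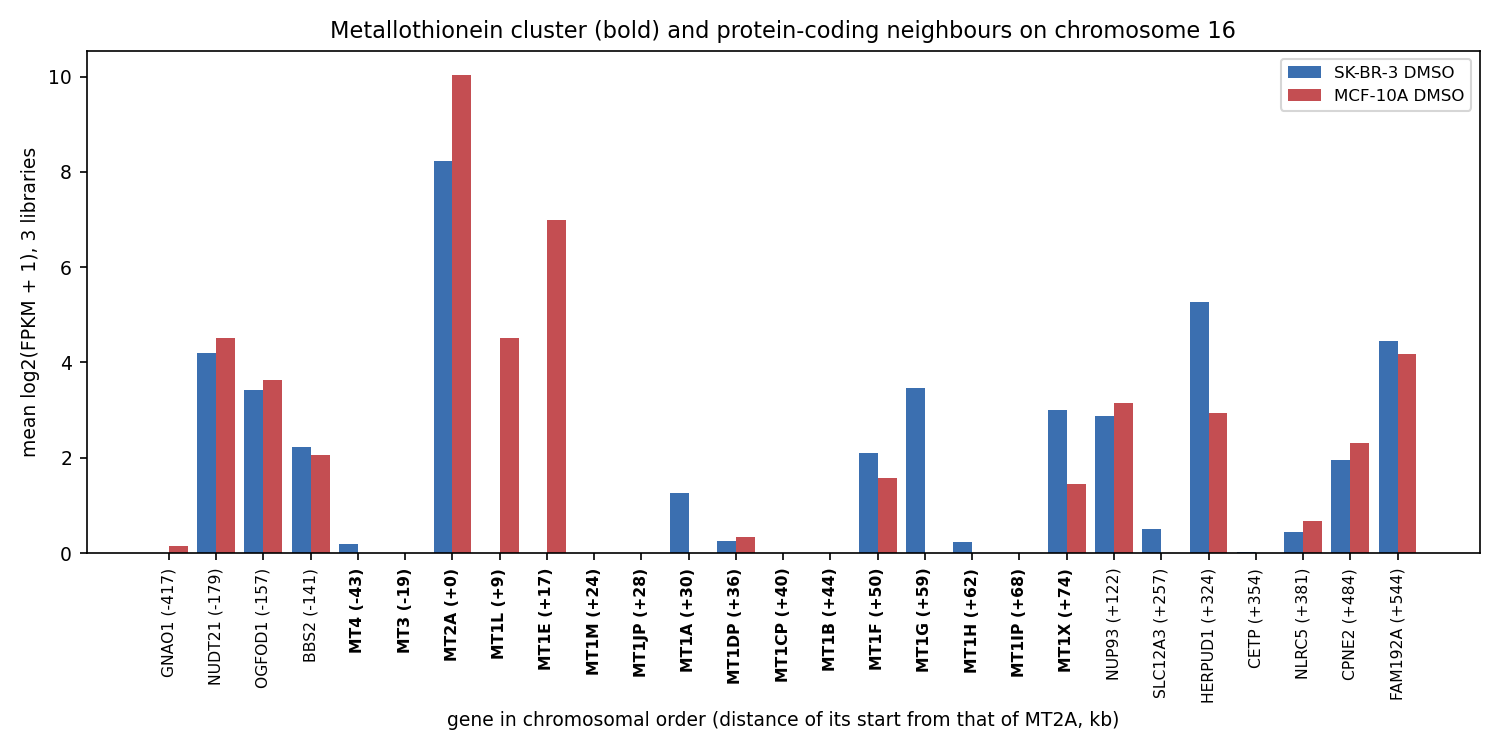
Mean level with DMSO, as log2(FPKM + 1), of metallothionein genes and pseudogenes (bold) and 11 protein-coding neighbours in chromosomal order, with the distance of each start from that of MT2A in kb, for SK-BR-3 and MCF-10A (3 libraries each). MT2A is high in both lines, MT1L and MT1E beside it are seen in MCF-10A and not in SK-BR-3, and MT1A, MT1G and MT1H are seen in SK-BR-3 and not in MCF-10A.

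MTF1 and the glucocorticoid receptor NR3C1, which act on metallothionein promoters, were both lower in SK-BR-3. MTF1 averaged 2.07 ± 0.207 FPKM in SK-BR-3 with DMSO and 4.22 ± 0.551 FPKM in MCF-10A with DMSO (log2 -0.76, limma adjusted p = 1.19e-05). NR3C1 averaged 2.36 ± 0.145 FPKM in SK-BR-3 and 13.4 ± 2.28 FPKM in MCF-10A (-2.09, adjusted p = 7.98e-09). With DATS, limma called neither in either line: the log2 difference was 0.06 for MTF1 in SK-BR-3 (adjusted p = 0.698), 0.02 in MCF-10A (0.955), and for NR3C1 0.11 in SK-BR-3 (0.557) and -0.07 in MCF-10A (0.744).

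SLC30A1 exports zinc across the plasma membrane and is a target of MTF1 like the metallothioneins. It averaged 10.3 ± 0.885 FPKM in SK-BR-3 with DATS and 9.81 ± 0.823 FPKM with DMSO (log2 0.06, 95% interval -0.13 to 0.25, limma adjusted p = 0.686). In MCF-10A it averaged 31.7 ± 2.56 FPKM with DATS and 30.2 ± 0.767 FPKM with DMSO (0.06, 95% interval -0.13 to 0.25, adjusted p = 0.714). It did not pass the test in either line, and its relation to the rise of MT1G, MT1F and MT2A in SK-BR-3 was not tested.

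Among 6 tested zinc exporters of the SLC30 family, 1 rose in SK-BR-3 (SLC30A6, 0.29, limma adjusted p = 0.0261) where edgeR called 0 and DESeq2 1. Limma, edgeR and DESeq2 called 0 in MCF-10A, with 0 at an unadjusted p under 0.05 by each. Among 10 zinc importers of the SLC39 family, SLC39A6 rose (0.40, adjusted p = 0.0106) and SLC39A11 fell by 0.29 (adjusted p = 0.0232) in SK-BR-3. There edgeR called 1 higher and 2 lower, and DESeq2 3 higher and 2 lower. In MCF-10A, SLC39A14 (0.64, adjusted p = 0.0246) and SLC39A11 (0.30, adjusted p = 0.0422) rose, and edgeR and DESeq2 also called 2 higher. SLC39A14 narrowly missed the test in SK-BR-3 (0.43, limma adjusted p = 0.0503). Of 12 copper-handling genes, SCO2, which delivers copper to cytochrome oxidase, fell by 0.58 in SK-BR-3 (limma adjusted p = 0.0449), where edgeR called 0 of the 12 and DESeq2 1. In MCF-10A limma, edgeR and DESeq2 called 0 of the 12, with 1, 1 and 2 at an unadjusted p under 0.05. The medians of these lists lay between -0.07 and 0.10 in either line, beside 0.03 in SK-BR-3 and 0.02 in MCF-10A over all genes. Of the 13194 genes tested, limma called 2391 in either direction in SK-BR-3 and 829 in MCF-10A.

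Of 10 genes that glucocorticoids induce, limma called 0 higher (edgeR 1 and DESeq2 2, with 3 in either direction at an unadjusted p under 0.05 by limma) and 1 lower in SK-BR-3 (PER1, a clock gene, by 0.48, limma adjusted p = 0.0284). In MCF-10A, 1 rose (ANGPTL4, 2.10, adjusted p = 0.0489) and 1 fell (SGK1, a kinase, by 0.42, adjusted p = 0.0405), and the ANGPTL4 libraries overlapped. There edgeR called 0 of the 10, and DESeq2 called 0 higher and 1 lower. Of 11 targets of NRF2, the factor that answers oxidants and electrophiles, 9 rose in SK-BR-3 and 7 in MCF-10A, with medians of 0.70 and 0.53. In SK-BR-3 the iron store FTH1 rose by 1.50, the haem oxygenase HMOX1 by 1.48, the thioredoxin reductase TXNRD1 by 1.32 and GCLM, of glutathione synthesis, by 1.18 (adjusted p = 0.000279, 0.00334, 0.000147 and 6.76e-05). In MCF-10A the ferritin chains FTL (1.19, adjusted p = 0.0057) and FTH1 (0.67, adjusted p = 0.0288), HMOX1 (1.05, adjusted p = 0.034) and OSGIN1, an oxidative stress protein (0.62, adjusted p = 0.0329), rose. Of 10 heat shock genes 6 rose in SK-BR-3, with a median of 0.37 over the 10, among them the small chaperone HSPB1 (1.13, adjusted p = 0.00334), HSPA6 (0.60, adjusted p = 0.0147), the co-chaperone BAG3 (0.50, adjusted p = 0.0135) and HSPA8 (0.50, adjusted p = 0.0127). In MCF-10A 1 of the 10 rose (BAG3, 0.43, adjusted p = 0.0477) and 1 fell (HSP90AA1, by 0.54, adjusted p = 0.00913), with a median of 0.12. These are limma values, and the lists were not compared with each other by a test. Of all genes tested, limma called 11.3% higher in SK-BR-3 and 550 of 13194 higher in MCF-10A. The lists were written with earlier results of these data known, so their counts are not independent of the data. Several list calls rested on single libraries. With each of the 12 libraries left out in turn, the call was lost in 11 fits for ANGPTL4, 10 for BAG3, 9 for SLC39A11 and 8 for SGK1 in MCF-10A, and in 9 for SCO2 in SK-BR-3. It was lost in 6 fits for HMOX1 and in 5 each for FTH1 and OSGIN1 in MCF-10A. The calls of FTH1, HMOX1, TXNRD1, GCLM, HSPB1 and SLC39A6 in SK-BR-3, and of FTL in MCF-10A, were kept in every such fit.

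**Figure D5:**
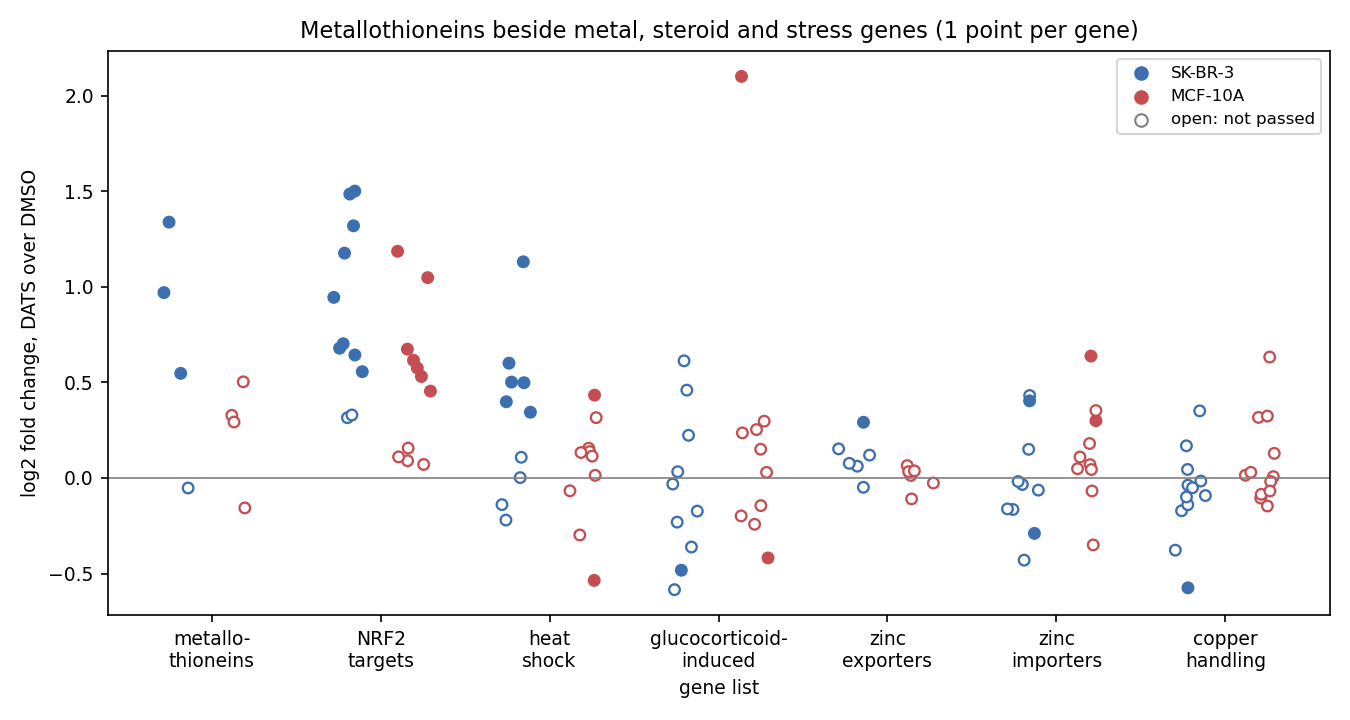
Log2 fold change of DATS over DMSO (vertical axis, FPKM + 1) for the metallothioneins and 6 gene lists in SK-BR-3 and MCF-10A, with 1 point per gene, filled where the adjusted p was under 0.05. The NRF2 targets lie above 0 in both lines (0.32 to 1.50 in SK-BR-3 and 0.07 to 1.19 in MCF-10A), while the zinc and copper lists scatter around 0.

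The 3 protein-coding genes most like each member over the 12 libraries were found by the root mean square difference of log2 profiles centred on their means, among 11270 genes. For MT2A they were ODC1 (0.16), PCBP4 (0.17) and IRF5 (0.18), where MT2A's own root mean square deviation was 0.89. For MT1E they were FGFBP1 (0.20), CDH3 (0.22) and COL17A1 (0.32), and for MT1X NPNT (0.14), NPIPA5 (0.14) and ATP2C2 (0.15). For MT1F they were TMBIM1 (0.22), ZNF165 (0.23) and UCHL1 (0.24), and for MT1G CDH5 (0.41), RND1 (0.49) and TCIM (0.50). FGFBP1, nearest to MT1E, averaged 0 FPKM in SK-BR-3 with DATS and 156.5 FPKM in MCF-10A with DATS. CDH5, nearest to MT1G, averaged 25.3 FPKM in SK-BR-3 with DATS and 11.8 FPKM with DMSO, and in MCF-10A 0.0325 FPKM with DATS and 0 FPKM with DMSO.

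Depth was 15295046 to 18407213 reads in genes per library, and the test took in 13194 genes. Markers fitted the labels: with DMSO the 8 basal genes were all lower and 7 of 7 tested luminal genes higher in SK-BR-3 than in MCF-10A, with ERBB2 at 493.4 FPKM in SK-BR-3 and 8.26 FPKM in MCF-10A. TFAP2B, the luminal gene not tested, was near 0 (0.389 FPKM in SK-BR-3). Some markers moved with DATS. The summed basal list was 31.1 to 36.2 FPKM with DATS and 20.8 to 23.4 FPKM with DMSO in SK-BR-3 (3 of 8 called higher). Most of this sum was ITGB4, which averaged 27.7 FPKM with DATS and 19.25 FPKM with DMSO. KRT14, KRT6A, TP63 and VIM averaged at most 0.128 FPKM in SK-BR-3 with either treatment. The luminal list was 191.0 to 223.0 FPKM with DATS and 116.0 to 134.0 FPKM with DMSO in MCF-10A (4 of 7 called higher). Of all genes tested, limma called 11.3% higher in SK-BR-3 and 550 of 13194 higher in MCF-10A. In SK-BR-3, 0 luminal genes were called higher by limma and 2 lower: ERBB2, at 389.6 ± 13.5 FPKM with DATS and 493.4 ± 23.6 FPKM with DMSO (adjusted p = 0.00673), and SPDEF, at 38.7 FPKM with DATS and 87.8 FPKM with DMSO (log2 -1.17 ± 0.25, adjusted p = 0.0102). In MCF-10A, KRT5 fell (log2 -0.50, limma adjusted p = 0.0383) and LAMA3 rose (0.80, limma adjusted p = 0.0305) among the 8 basal genes. The endothelial list was 21.4 to 30.1 FPKM with DATS and 9.83 to 15.2 FPKM with DMSO in SK-BR-3, nearly all of it CDH5, while PECAM1, VWF and KDR reached at most 0.208 FPKM in any library. Neither of the 2 tested fibroblast genes nor CD14, the tested leukocyte gene, was called with DATS in either line. The part of these markers in the metallothionein response was not tested, and in bulk RNA fewer cells of a type and less RNA per cell cannot be told apart.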

How the data were processed

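RNA of 12 libraries was analysed from tables deposited by the authors. Per the submitters' processing notes, STAR 2.6.1d was the aligner, DESeq2 the test program and GRCh38 (hg38) the build. The counting program, its strand setting, the annotation and the read length are, in these sources, not given. The FPKM of all 58735 genes in each library is as deposited. Per the file headers, further deposited tables list read counts, a normalized signal, the log2 fold change and the p-value. They hold the genes that passed an unadjusted p of 0.05 in 1 line. They served to check the unit, to derive the effective library sizes from which reads were recovered, and to quote the authors' results.

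FPKM times merged exon length (GENCODE 29) times effective library size came to a whole number of reads in all 704820 values, to within 0.0001 read. The effective size was 0.886 to 0.919 of the reads in genes in SK-BR-3 with DATS and 0.930 to 0.982 with DMSO. In MCF-10A it was 0.958 to 1.01 of them with DATS and 0.991 to 1.07 with DMSO. The 13194 genes that reached 1 FPKM in 3 or more libraries were fitted as log2(FPKM + 1) with limma 3.58.1 (R 4.3.3), using the 12 libraries together, a mean for each group and trended variances, adjusted by Benjamini-Hochberg over all genes tested and called at an adjusted p under 0.05. This scale understates the change of low genes. Reads recovered were also tested with edgeR 4.0.16 and DESeq2 1.42.0, and other pseudocounts, filters, quantile normalization, each line alone and each library left out were tried. The scripts were tested on simulated data.

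The titles carry replicate numbers, without saying what a number stands for. Numbers were read as pairs because deviations from the group means of same-numbered libraries correlated (0.394, 0.245 and 0.250 in SK-BR-3, 0.210, 0.186 and 0.333 in MCF-10A), so a replicate block was an alternative. Named genes are the 6 members, family genes with at least 10 reads, up to 4 called genes per list, called neighbours and the 3 nearest genes by likeness. HERPUD1 was named after its values were seen. Results of 1 further neighbour are not reported here. The members and lists were chosen with earlier results of these data known.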

Additional observations from a re-analysis of the deposited data

Results flagged for a closer look

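No metallothionein had a called difference between the DATS responses of the lines. For 8 genes of the metal, steroid and stress lists limma called this difference (SK-BR-3 minus MCF-10A, log2 scale). GCLM differed by 1.02 (adjusted p = 0.00371), with a response of 1.18 in SK-BR-3 and 0.16 in MCF-10A. TXNRD1 differed by 0.79 (adjusted p = 0.0265), with responses of 1.32 in SK-BR-3 and 0.53 in MCF-10A. HSPB1 differed by 1.12 (adjusted p = 0.0428), with 1.13 in SK-BR-3 and 0.01 in MCF-10A. HSP90AA1 differed by 0.88 (adjusted p = 0.00612), with 0.34 in SK-BR-3 and -0.54 in MCF-10A. HSPH1, a chaperone, differed by 0.70 (adjusted p = 0.0285), with 0.40 in SK-BR-3 and -0.30 in MCF-10A. SGK1 differed by 0.64 (adjusted p = 0.0378), with 0.22 in SK-BR-3 and -0.42 in MCF-10A. Its means in SK-BR-3 were only 0.441 FPKM with DATS and 0.236 FPKM with DMSO. SLC39A11, a zinc importer, differed by -0.59 (adjusted p = 0.0171), with -0.29 in SK-BR-3 and 0.30 in MCF-10A. SCO2 differed by -1.21 (adjusted p = 0.0278), with -0.58 in SK-BR-3 and 0.63 in MCF-10A, at means of at most 2.27 FPKM in any group. Limma also called the difference for 5 marker genes: CD44 (1.05, adjusted p = 0.0108), KRT5 (0.94, adjusted p = 0.0191), CDH5 (1.00, adjusted p = 0.0276), ERBB2 (-0.39, adjusted p = 0.0406) and FOXA1 (-0.98, adjusted p = 0.0206). CDH5 averaged 0.0325 FPKM with DATS and 0 FPKM with DMSO in MCF-10A, so its difference is nearly its response in SK-BR-3 alone. KRT5 was near the floor in SK-BR-3, at 0.780 FPKM with DATS and 0.312 FPKM with DMSO.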

How the results depend on the processing

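The number of members called was 3 with DATS in SK-BR-3, 0 in MCF-10A, 0 for the difference and 5 between the lines with DMSO. In SK-BR-3 it was 1 with no filter on low values and 0 in SK-BR-3 alone, and 1 to 3 with 1 library left out. In MCF-10A it was 0 to 1 with 1 library left out and 2 with replicate 3 of every group left out, and for the difference 0 to 1 with 1 library left out and 1 with replicate 3 of every group left out. With the replicate block it was 3 in SK-BR-3, 0 in MCF-10A, 1 for the difference and 5 between the lines, and the block changed no other call of a member.

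All genes called numbered 2391 in SK-BR-3, 829 in MCF-10A, 566 for the difference and 9515 between the lines. In MCF-10A the count was 540 with pseudocount 0.01, 418 with no filter, 1249 with quantile normalization, 1456 with DESeq2, 0 in MCF-10A alone (3285 genes at an unadjusted p under 0.05), 2100 with the replicate block and 86 to 1945 with 1 library left out. In SK-BR-3 it was 917 in SK-BR-3 alone, 3621 with the replicate block, 702 with replicate 3 of every group left out and 1253 to 2657 with 1 library left out. For the difference it was 250 with no filter, 1094 with DESeq2, 1296 with the replicate block, 210 with replicate 3 of every group left out and 136 to 1035 with 1 library left out. Between the lines it was 6171 with a filter at 5 FPKM, where 8101 genes were tested. Of the genes called with DATS, 62.1% were higher in SK-BR-3 (50.8% with edgeR) and 66.3% in MCF-10A (50.8% with quantile normalization).

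Of 361 fits of a member under an alternative, 326 kept direction and call, 24 lost the call, 6 gained it and 5 turned direction, all 5 for MT1X. Fits of MT1E in SK-BR-3 and for the difference, and of MT1G in MCF-10A, are not in this count. The DESeq2 call of MT1E in SK-BR-3 (adjusted p = 0.0483) is thus not among the 6. With 1 library left out MT1X ran from -0.27 to 0.12 in SK-BR-3 and from -0.11 to 0.28 for the difference, and it was 0.0255 in SK-BR-3 with replicate 3 of every group left out. MT1L in MCF-10A ran from -0.23 to 0.10, and was 0.11 with replicate 3 of every group left out. MTF1 in MCF-10A was -0.00671 with quantile normalization, -0.063 with replicate 3 left out and -0.0639 to 0.0894 with 1 library left out, and in SK-BR-3 -0.00299 with replicate 3 left out. NR3C1 in MCF-10A ran from -0.209 to 0.0154. SLC30A1 was -0.0114 in MCF-10A with quantile normalization and ran from -0.00225 to 0.107 in SK-BR-3 with 1 library left out. None of these fits of MT1X, MT1L, MTF1, NR3C1 and SLC30A1 was called, and the cause was not tested. Depth limits MT1M, MT1H and MT1A, with 1, 53 and 108 reads.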
